A study of Mus musculus with 35 samples.

Results

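The nuclear genes of the mitochondrial respiratory chain and ATP synthase were followed in 35 bulk RNA sequencing libraries of sorted mouse liver macrophages. Members were all symbols starting with Ndufa, Ndufb, Ndufc, Ndufs, Ndufv, Uqcr, Cox4i, Cox5, Cox6, Cox7, Cox8 or Atp5, together with Sdha, Sdhb, Sdhc and Sdhd. Symbols ending in -ps or os were dropped, which removed 4 of 106, and a member had to exceed a scaled count of 1 (CPM, counts normalized to a fixed library total) in at least 5 of the 35 libraries. Of the 102 remaining symbols, 90 passed and 12 did not, so members made up 90 of the 13421 genes tested. Complex I had 45 members, complex II 4, complex III 8, complex IV 15 and complex V, the ATP synthase, 18. The prefixes also brought in genes that are not subunits: 8 assembly factors named Ndufaf, the supercomplex factor Cox7a2l, the ATP synthase-related factor Atp5s, the retrotransposed copies Ndufs6b and Cox6c2, and the pseudogene Atp5k-ps2. That left 77 subunit genes.

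Male C57BL/6J mice received a standard diet (SD) or a western diet (WD), rich in fat and cholesterol with sugar in the drinking water, for 12 or 24 weeks from 5 weeks of age. Resident Kupffer cells (ResKCs), sorted as CLEC4F+ TIM4+ macrophages, gave 7 libraries on the SD and 5 on the WD at 12 weeks, and 6 on each diet at 24 weeks. Monocyte-derived Kupffer cells (moKCs, CLEC4F+ TIM4-) gave 5 libraries and CLEC4F- macrophages (CLEC4F- macs) gave 6, both from the WD at 24 weeks, with no SD counterpart. No group carried a transgene or a deletion, and the labels do not say whether each library came from its own animal, so p-values measure the spread between libraries. The diet tag of the 5 ResKC libraries described as WD at 12 weeks reads standard diet, so their grouping rests on title and description. Libraries held 11568590 to 15163845 counts, and 3 counts corresponded to 0.198 to 0.259 CPM. Alignment names in the file headers followed 2 schemes. All 6 SD libraries at 24 weeks and all 5 WD libraries at 12 weeks had the first scheme, whereas the WD ResKCs at 24 weeks were split 3 and 3. Summed CPM of the Kupffer cell genes Clec4f, Vsig4, Cd5l and Folr2 ran from 1258 to 12161.5 in the CLEC4F- libraries, with replicate 4 the highest, and lay above that range in every ResKC and moKC library.

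The respiratory chain passes electrons from NADH through complex I, and from succinate through complex II, to ubiquinone, then through complex III and cytochrome c to complex IV, where oxygen is reduced. Complexes I, III and IV pump protons, and complex V uses the return flow to make ATP. Most subunits are encoded in the nucleus, and the catalytic cores of complexes I, III and IV depend on further subunits encoded in mitochondrial DNA. In complex I the members divide into core subunits, which carry the flavin and the iron-sulfur clusters, and accessory subunits, which surround the core. The balance between respiration and glycolysis is widely studied in macrophages because it shifts with their activation state.

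Promoter sequences are shown because most members are expressed in every library and several motifs are well known in this gene family. RefSeq sequence (GRCm38.p6, 250 bases before to 50 after each start) was matched to 72 of the 90 members. On either strand, the nuclear respiratory factor 1 motif GCATGCGC was present in 12 member promoters (16.7%), against 5.28% of the 9964 matched tested genes and 2.80% of all 27025 promoters. The ETS motif CCGGAAG was present in 17 (23.6%), against 18.3% and 9.12%, and the YY1 motif AAGATGGC in 9 (12.5%), against 4.75% and 2.88%. At least 1 of these was found in 32 member promoters (44.4%), compared with 25.9% of tested genes and 13.8% of all. Among the members called lower with the WD at 24 weeks, described later, 5 of 14 matched promoters held one (35.7%). The motifs do not overlap each other in the promoters printed here, but GCATGCGC can overlap its own reverse complement, which it did in Cox6a1. Capitals mark matched motifs, and each sequence runs 5′ to 3′ on the gene's strand. Cox6a1 (chr5:115348909-115349208, minus strand) held the NRF1 motif on both strands and an ETS motif on the opposite strand, Atp5h (chr11:115419870-115420169, minus strand) an ETS motif on the opposite strand, Ndufa3 (chr7:3617123-3617422, plus strand) a YY1 motif, and Cox5a (chr9:57520982-57521281, plus strand) none of these letters.
Cox6a1: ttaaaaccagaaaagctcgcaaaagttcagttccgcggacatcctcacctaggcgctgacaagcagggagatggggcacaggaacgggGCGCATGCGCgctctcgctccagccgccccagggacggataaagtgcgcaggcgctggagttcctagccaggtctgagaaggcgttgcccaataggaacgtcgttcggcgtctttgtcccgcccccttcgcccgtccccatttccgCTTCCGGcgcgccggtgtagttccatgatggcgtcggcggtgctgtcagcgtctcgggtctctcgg
Atp5h: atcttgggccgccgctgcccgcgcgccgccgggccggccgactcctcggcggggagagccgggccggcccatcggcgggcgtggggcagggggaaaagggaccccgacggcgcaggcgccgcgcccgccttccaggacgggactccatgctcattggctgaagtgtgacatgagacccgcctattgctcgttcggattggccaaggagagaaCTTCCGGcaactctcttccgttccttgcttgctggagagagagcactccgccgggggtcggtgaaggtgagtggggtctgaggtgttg
Ndufa3: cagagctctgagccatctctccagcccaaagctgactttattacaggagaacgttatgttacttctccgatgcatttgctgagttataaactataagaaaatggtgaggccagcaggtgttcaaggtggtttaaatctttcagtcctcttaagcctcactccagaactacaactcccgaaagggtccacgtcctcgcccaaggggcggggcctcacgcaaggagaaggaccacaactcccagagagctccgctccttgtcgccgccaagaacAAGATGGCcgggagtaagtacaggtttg
Cox5a: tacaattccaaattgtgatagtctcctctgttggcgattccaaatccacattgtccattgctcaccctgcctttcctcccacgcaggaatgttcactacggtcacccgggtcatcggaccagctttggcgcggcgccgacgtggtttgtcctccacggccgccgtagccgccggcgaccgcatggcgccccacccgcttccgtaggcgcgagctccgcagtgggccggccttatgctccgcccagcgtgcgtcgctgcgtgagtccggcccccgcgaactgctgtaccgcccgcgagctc

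Respiratory chain transcripts were abundant and even across groups. Summed over the 90 members, the level was 8198 ± 428 CPM (SD, n = 7) in ResKCs of SD mice and 8830 ± 706 CPM (n = 5) in those of WD mice at 12 weeks, and 8806 ± 315 CPM (n = 6) and 8076 ± 455 CPM (n = 6) at 24 weeks. moKCs were at 8032 ± 653 CPM (n = 5) and CLEC4F- macs at 8164 ± 551 CPM (n = 6). Single libraries ran from 7042 to 9724 CPM, and every pair of groups overlapped. Of the 90 members, 88 exceeded 1 CPM in all 35 libraries.

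**Figure D1:**
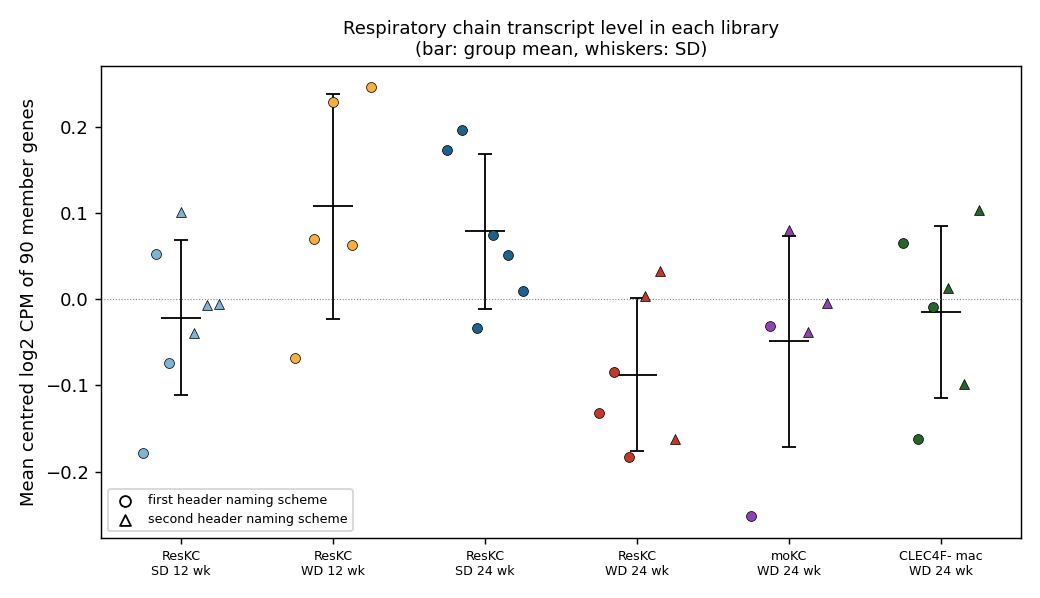
Mean over the 90 members of log2 CPM, each gene centered on its mean over all libraries (y axis, log2 units), in each library of the 6 groups (x axis); circles and triangles are the 2 naming schemes, bars are group means and whiskers SD. The SD ResKCs at 24 weeks lie from -0.03 to 0.20 and the WD ResKCs from -0.18 to 0.03, so the groups overlap.

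Per kilobase of principal transcript, the highest levels over all 35 libraries were those of Atp5b, the catalytic β subunit of the ATP synthase (432 CPM per kb), Cox4i1, the general isoform of cytochrome c oxidase subunit 4 (385 CPM per kb), and Cox6a1, the general isoform of subunit 6A (382 CPM per kb). Cox6b1 followed at 281, Cox8a at 273 and Atp5a1, the α subunit of the ATP synthase, at 266 CPM per kb. These levels rest on annotated transcript lengths, which differ from the ends used in a cell for some genes. Among the most abundant complex I members by CPM was Ndufv2, a core subunit, and those of complex III were Uqcrc1, a core protein, and Uqcrb, which helps to form the ubiquinone site.

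Isoforms known from muscle, lung or testis were at or near the detection floor. Cox4i2, the oxygen-responsive isoform in lung, averaged 0.124 to 0.350 CPM in the 6 groups, against 275 to 314 CPM for Cox4i1. Ndufa4l2, a hypoxia-induced relative of Ndufa4, averaged 0.123 to 0.418 CPM, against 114 to 143 CPM for Ndufa4. Cox8c, a testis isoform, had no read in any library, which allows up to 0.259 CPM in the shallowest, and Cox8b, a heart and muscle isoform, had reads in only 3 libraries, up to 0.150 CPM. Cox8a, the general isoform, averaged 135 to 171 CPM. The 3 genes of the ATP synthase c ring encode the same mature protein, and Atp5g3 was highest of them at 254 CPM per kb, with group means of 176 to 194 CPM. Atp5g1 had group means of 41.4 to 49.5 CPM and Atp5g2 of 28.0 to 29.5 CPM, and neither gene overlapped Atp5g3 in any group.

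Genes on both sides of the filter lay close to its limit of 1 CPM. The members just inside it were Cox6b2, a testis isoform, and Cox7a1, a heart and muscle isoform, each above 1 CPM in 12 libraries, with group means of 0.527 to 1.06 and 0.562 to 1.11 CPM. Cox7a2, the general isoform, averaged 81.7 to 97.7 CPM. Just outside were Cox6a2, a heart and muscle isoform above 1 CPM in 4 libraries, and the pseudogene Uqcrh-ps1, above it in none.

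The first comparison asked how the WD changed these genes in ResKCs at 12 weeks. None of the 90 members was called, while the edgeR quasi-likelihood test called 0.0149% of the 13421 genes higher and 0.0224% lower. DESeq2 and limma also called 0 members. At an unadjusted p under 0.05, 26 members were higher and 0 lower, when 5.26% of all tested genes were higher and 3.47% lower, and the median log2 fold change was 0.12, against 0.02 for all tested genes. The estimate was below 0 for 12 of 90. Atp5j2, a membrane subunit of the ATP synthase, had the smallest p, with a log2 fold change of 0.37 ± 0.09 (SE) and an adjusted p of 0.128. The libraries of the 2 diets overlapped for 88 members, the exceptions being Atp5k, another membrane subunit, and Cox7a1, at the detection floor. Of all tested genes, 0.283% were higher and 0.216% lower without overlap. The 7 SD libraries held both naming schemes, 3 of the first and 4 of the second, and the median was 0.18 with the scheme as a covariate, 0.17 within the first scheme and 0.05 with the principal transcript length trend removed, with 0 members called in each.

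At 24 weeks, the WD was accompanied by lower levels of 17 members in ResKCs, and no member was called higher. Across all genes the edgeR quasi-likelihood test called 3.87% lower and 4.84% higher. DESeq2 called 23 members lower and limma 13, against 5.03% and 3.38% of all genes. The members' median log2 fold change was -0.17, with 80 of 90 estimates below 0, against 0.00 for all tested genes. The changes were small, the 17 members being 14.7% to 30.5% lower on the fitted scale. At an unadjusted p under 0.05, 39 members were lower and 1 was higher, compared with 11.8% and 13.0% of all tested genes. The count called lower was between 8 and 11 without any 1 of SD replicates 1, 2 and 4 or WD replicates 1, 2, 3 and 6. In those fits 2.71% to 3.19% of all genes were called lower. Scaling by library size alone raised the median of all genes to 0.08. With it, 5 members were lower and 1, Sdha, was higher, against 2.53% and 8.49% of all genes. In bulk RNA, fewer cells of a type and less RNA per cell cannot be told apart.

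Complex V and complex I supplied the clearest single genes. Atp5h, subunit d of the stalk that holds the catalytic head in place, had 120.8 ± 9.3 CPM (SD, n = 6) on the SD, from 105.6 through a median of 121.5 to 132 CPM. On the WD it had 92.0 ± 8.4 CPM (n = 6), from 82.4 through 89.9 to 103.4 CPM. Every WD library was below every SD library, and the log2 fold change was -0.39 ± 0.08 (SE, adjusted p = 0.00141). Ndufa1, a small membrane-anchored accessory subunit of complex I, ran from 59.3 through 80.1 to 86.0 CPM on the SD and from 53.9 through 57.3 to 64.6 CPM on the WD. Here 1 SD library lay inside the WD range, and the log2 fold change was -0.40 ± 0.08 (adjusted p = 0.00314). Ndufb5, an accessory subunit of the membrane arm, ran from 57.1 through 64.8 to 70.1 CPM on the SD and from 45.5 through 50.2 to 54.2 CPM on the WD. The groups did not overlap, with a log2 fold change of -0.35 ± 0.08 (adjusted p = 0.00702).

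**Figure D2:**
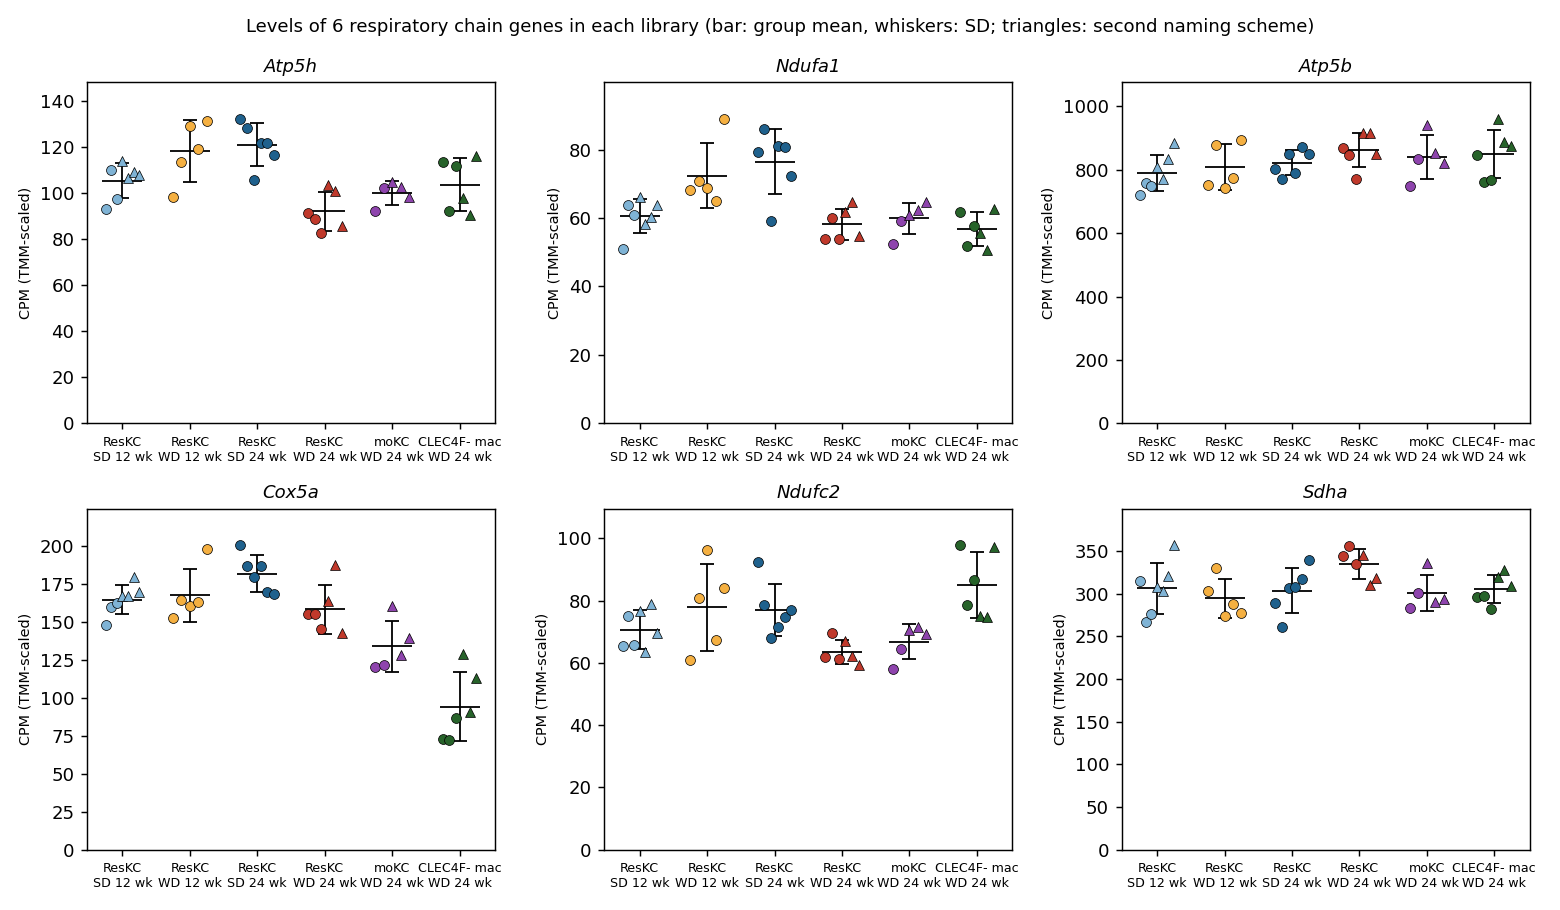
TMM-scaled CPM (y axis, from 0) of 6 member genes in each library of the 6 groups (x axis); bars are group means, whiskers SD and triangles the second naming scheme. Atp5h is lower in every WD than in every SD ResKC library at 24 weeks, and Atp5b lies between 719 and 961 CPM throughout. Cox5a averages 182 ± 12 CPM in SD ResKCs at 24 weeks and 94.0 ± 23 CPM in CLEC4F- macs, groups that differ in both diet and cell type and were not tested against each other.

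Within complex I, 8 of 45 members were called lower, namely Ndufa1, Ndufa3, Ndufa8, Ndufb4, Ndufb5, Ndufb9, Ndufb10 and the assembly factor Ndufaf7. The 29 accessory subunits had a median log2 fold change of -0.24 with 7 called, whereas the 7 core subunits had a median of 0.01 with 0 called by edgeR and 1 at an unadjusted p under 0.05. These classes also differed in length. Core principal transcripts ran from 983 to 2661 bases, and those of the called accessory genes from 419 to 1079 bases. Length is taken up below, and its part in this difference was not tested. Ndufaf7, a methyltransferase needed for complex I assembly, had the largest called change, -0.53 ± 0.13 (adjusted p = 0.0115), from 13.5 ± 1.3 to 9.41 ± 2.0 CPM. Ndufv2, an abundant core member, ran from 120 through 125 to 142 CPM on the SD and from 96.6 through 106 to 118 CPM on the WD without overlap, and its adjusted p was 0.0578.

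Complex II, the succinate dehydrogenase, had 0 of 4 members called by edgeR at 24 weeks. At an unadjusted p under 0.05, 2 were lower and 1 was higher. The flavoprotein Sdha had 303.5 ± 27 CPM with the SD and 334.8 ± 18 CPM with the WD (log2 fold change 0.14 ± 0.07, adjusted p = 0.18). The iron-sulfur subunit Sdhb had 199.1 ± 15 and 176.5 ± 14 CPM, and the membrane anchor Sdhc 134.2 ± 10 and 134.9 ± 11 CPM. The anchor Sdhd had 226.4 ± 10 and 192.4 ± 7.6 CPM, with no overlap between the diets and an adjusted p of 0.0509, just over the limit.

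In complex III, 1 of 8 members was called. Uqcrb had 134.7 ± 12 CPM with the SD and 111.3 ± 4.8 CPM with the WD (log2 fold change -0.28 ± 0.07, adjusted p = 0.0126), with overlapping groups. Uqcrc1 had 209.3 ± 14 and 212.1 ± 17 CPM.

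Complex IV had the largest called share, 6 of 15, with a median log2 fold change of -0.23. All 15 estimates were below 0. The called genes were Cox6a1, Cox6b1, Cox6c, Cox7a2, Cox7c and Ndufa4, each a nuclear subunit around the mitochondrially encoded core. Their principal transcripts were short, at 540 to 738 bases, and the part of length in this share was not tested. Cox6b1, on the intermembrane face, had 193.0 ± 18 and 156.5 ± 19 CPM (adjusted p = 0.0208). Ndufa4, once assigned to complex I, ran from 123 through 139 to 174 CPM with the SD and from 109 through 114 to 121 CPM with the WD. Its groups did not overlap, and the adjusted p was 0.0226, rising to 0.078 without SD replicate 2. Cox6a1 had 252.7 ± 19 and 215.6 ± 17 CPM (adjusted p = 0.0263), whereas the difference for Cox4i1, 311.5 ± 21 and 274.9 ± 23 CPM, was not called. Of the 12 fits without 1 library, the call was lost in 4 for Cox6a1, 3 for Cox6b1 and 8 for Cox7a2. The fit without WD replicate 3 was among them in all 3 cases. Of 17 other alternatives, 11, 5 and 14 lost these calls.

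In complex V, 2 of 18 members were called, Atp5h and Atp5j, both in the peripheral stalk. Atp5j, coupling factor 6, had 134.7 ± 9.0 CPM with the SD and 111.9 ± 6.7 CPM with the WD without overlap (adjusted p = 0.0334). The 5 subunits of the catalytic head had a median log2 fold change of -0.01, with 0 called by edgeR and 2 lower at an unadjusted p under 0.05. Principal transcripts of the head subunits ran from 421 to 2471 bases, against 682 for Atp5h and 809 for Atp5j. Atp5b had 821.9 ± 40 and 862.1 ± 54 CPM (0.07 ± 0.07) and Atp5a1 685.5 ± 50 and 681.1 ± 20 CPM. Of all 90 members, 8 did not overlap between the diets (8.89%), each lower on the WD, when 1.91% of all tested genes were lower and 2.19% higher without overlap, and 4 of these were among the 17 called.

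**Figure D3:**
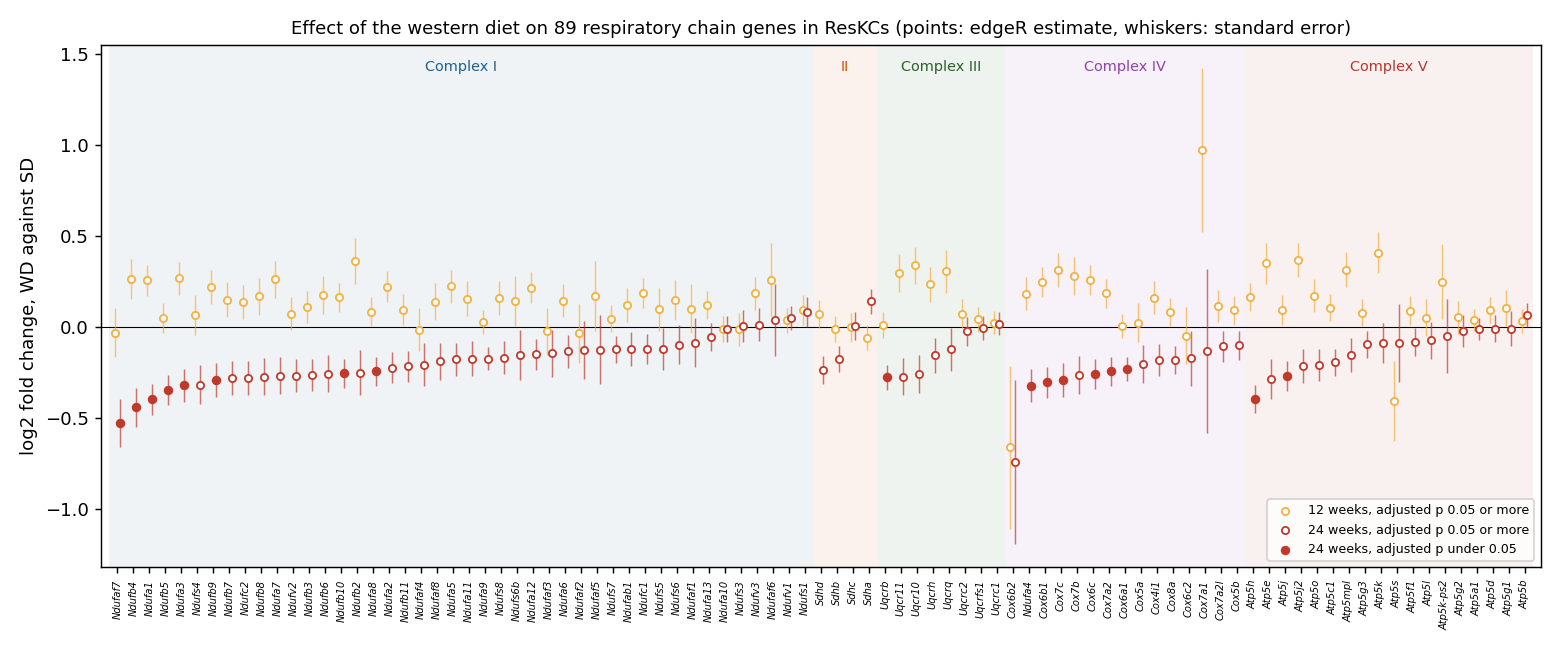
Log2 fold change, WD against SD, in ResKCs (y axis) for 89 of the 90 members grouped by complex (x axis); yellow is 12 weeks and red 24 weeks, filled points have an adjusted p under 0.05 and whiskers are standard errors. The 17 filled red points are all below 0, and no yellow point is filled.

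Transcript length moved with the diet effects. The members' principal transcripts had a median of 863 bases, against 2848 for all tested genes, and 79 members fell in the lowest quartile of length (57 to 1787 bases). Over all genes of that quartile, the median log2 fold change was 0.07 at 12 weeks and -0.08 at 24 weeks, and 7.46% were called lower at 24 weeks. The 79 members there had a median of -0.18 at 24 weeks with 17 called, and the 71 cytosolic ribosomal protein genes there had -0.11. Among members themselves, the 51 under 1000 bases had a median of -0.22, all below 0 and 15 called, compared with -0.09 and 2 called for the 39 longer ones. With the trend on principal transcript length removed, an alternative chosen after seeing the data, 6 members were called lower and the median was -0.07. Atp5h (-0.27, adjusted p = 0.000687), Ndufa1 (-0.25, adjusted p = 0.00704) and Ndufb5 (-0.25, adjusted p = 0.0155) were among them. With a trend on total exonic length 10 were called. Of all genes, 3.96% were called lower with the principal and 3.98% with the exonic length trend removed.

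**Figure D4:**
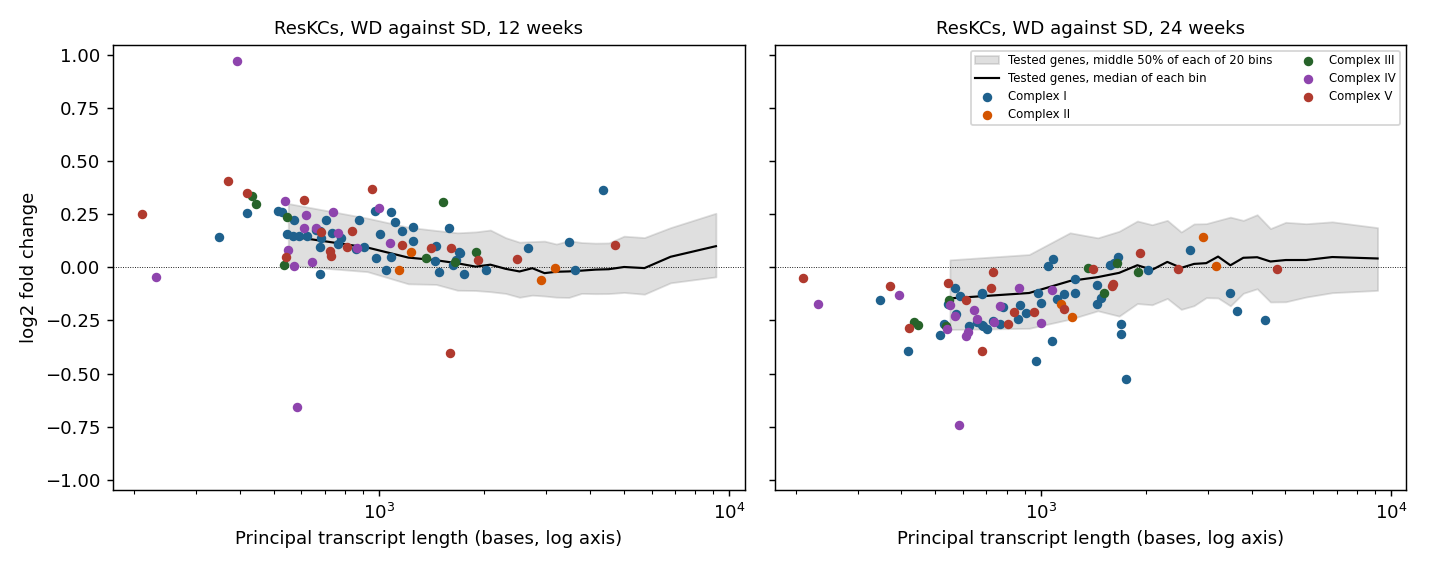
Log2 fold change, WD against SD, in ResKCs (y axis) against principal transcript length in bases (x axis, log scale) at 12 weeks (left) and 24 weeks (right); points are members colored by complex, the line is the median of tested genes in 20 length bins and the band their middle 50%. The median lines of the shortest bins lie above 0 at 12 weeks and below 0 at 24 weeks. In the shortest bin the band runs from 0.01 to 0.30 at 12 weeks and from -0.29 to 0.04 at 24 weeks. The 51 members under 1000 bases have medians of 0.16 and -0.22.

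Other measures also moved with the diet at 24 weeks. The mean log2 CPM of 10 immediate-early and heat-shock genes was 8.58 ± 0.93 on the SD and 6.96 ± 0.75 on the WD, with 6 of 10 called lower. That of 10 hepatocyte genes was 6.18 ± 0.72 and 7.22 ± 0.64, with 2 of 10 called higher. With each mean as a covariate, 13 and 7 members were called lower, against 1.62% and 3.30% of all genes. The part of these measures in the member changes was not tested further. Markers of other cells moved as well. Of 5 B cell genes, 1, Cd79b, was called lower (log2 fold change -1.29 ± 0.30, adjusted p = 0.0078), and their summed level of 31.7 to 57.0 CPM with the SD did not overlap the 9.85 to 28.5 CPM with the WD. Dcn, 1 of 6 stellate cell and fibroblast genes, was lower (-1.26, adjusted p = 0.0251), as was Lyz2, 1 of 6 macrophage genes (-0.66, adjusted p = 0.0129), and Spp1, 1 of 4 genes marking CLEC4F- macs, was higher (2.92, adjusted p = 0.0111). Of 7 endothelial genes 0 were called, and their sum was 966 to 1932 CPM with the SD and 719 to 1193 CPM with the WD. The part of these cells in the member changes was not tested. With the naming scheme as a covariate 24 members were called lower (median -0.23). Within the first naming scheme, 6 SD and 3 WD libraries gave a median of -0.25 over the members and 5 called, including Atp5h (-0.47, adjusted p = 0.0144) and Ndufa1 (-0.46, adjusted p = 0.0331). Of all genes, 3.37% were called lower with the scheme covariate and 1.67% within the first scheme. The second scheme held no SD library at 24 weeks.

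The diet effects at 24 and 12 weeks differed for 8 members, each with the lower effect at 24 weeks, against 0.216% of all genes called lower and 0.0671% higher by edgeR. DESeq2 called 18 members and limma 8, against 0.775% and 0.224% of all genes called lower. The 8 members called by edgeR were the complex I accessory genes Ndufa1, Ndufa3 and Ndufb4, the complex IV genes Cox6b1, Cox6c and Cox7c, and the ATP synthase genes Atp5h and Atp5j2. For Ndufa1 the log2 fold change was 0.26 at 12 weeks and -0.40 at 24 weeks, a difference of -0.65 ± 0.12 (edgeR quasi-likelihood test, adjusted p = 0.00935). Atp5h went from 0.17 to -0.39, a difference of -0.56 ± 0.11 (adjusted p = 0.017), and Cox6b1 from 0.25 to -0.30 (adjusted p = 0.032). Of the 8, 7 were among the 17 called lower at 24 weeks, a comparison whose samples also enter this one. All 8 had principal transcripts under 1000 bases.

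The number called for that difference was sensitive to the samples and to length. The median over the members was -0.30, and 82 of 90 estimates were below 0. With the principal transcript length trend removed the median was -0.13 with 1 called, and a single omitted library left between 1 and 17 called (1 without WD replicate 5 at 12 weeks or SD replicate 1 at 24 weeks). Within the first naming scheme, 3 of the 7 SD libraries at 12 weeks remained. There 0 members and 0% of all genes were called, while the members' median was -0.40 and 88 of 90 estimates were below 0.

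Between SD ResKCs at 24 and 12 weeks no member was called, and the edgeR test called 0% of all genes in either direction. DESeq2 and limma also called 0 members. At an unadjusted p under 0.05, 16 members were higher at 24 weeks and 0 lower, when 4.49% of all tested genes were higher and 4.52% lower. The median was 0.11, and it was 0.17 with the naming scheme as a covariate, 0.16 within the first scheme and 0.08 with the principal transcript length trend removed. Ndufa1 had 60.6 ± 5.0 CPM (n = 7) at 12 weeks and 76.5 ± 9.5 CPM (n = 6) at 24 weeks (log2 fold change 0.34 ± 0.08, adjusted p = 0.183). On the WD, its 12-week libraries were at 68.3, 70.8, 68.9, 65.1 and 89.0 CPM. These overlapped both SD groups, and the SD group at 12 weeks overlapped the WD group at 24 weeks. Atp5h had 105.3 ± 7.5 CPM in SD ResKCs at 12 weeks, from 92.9 through 107.7 to 113.9 CPM, and its WD libraries at 12 weeks were at 98.2, 113.1, 129, 119.1 and 131 CPM. The SD group at 12 weeks thus overlapped the WD groups of both times.

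The next question was whether macrophage populations of the WD liver differ in these genes at 24 weeks. ResKCs against CLEC4F- macs gave 4 members higher and 7 lower, when 17.0% of all genes were called higher and 16.1% lower by edgeR. The median log2 fold change was -0.09, against -0.02 for all genes, and 66 of 90 estimates were below 0. The split depended on the scaling: with library size alone, which moved the median of all genes to -0.14, 1 member (Cox5a) was higher and 34 were lower, against 12.2% and 24.3% of all genes. With the principal transcript length trend removed 13 were higher and 4 lower, against 17.4% and 16.4% of all genes.

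Markers of other cells differed between these populations too. In ResKCs 2 of 7 endothelial genes were higher, led by Cdh5 (log2 fold change 2.30, edgeR adjusted p = 1.05e-10). Summed over the 7, the range was 719 to 1193 CPM for ResKCs, against 441 to 686 CPM for the CLEC4F- population. Only Cdh5 and Stab2 had higher group means in ResKCs (359 and 345 CPM, against 72.7 and 119 CPM). Group means of Clec4g, Ptprb, Kdr, Dpp4 and Oit3 were lower there, at 31.7 to 70.7 CPM against 46.4 to 86.7 CPM. The endothelial markers thus did not move together. Lower in ResKCs were 4 of 5 B cell genes, 3 of 5 tested dendritic cell genes, 4 of 6 stellate cell and fibroblast genes and 3 of 3 tested T and NK cell genes, among them Cd79b (-1.58), Cd209a (-5.29), Col3a1 (-1.69) and Nkg7 (-2.60). The other listed T and NK cell genes did not pass the filter. Flt3 and Nkg7 averaged 5.20 and 4.49 CPM in CLEC4F- macs and at most 0.565 and 1.55 CPM in the other groups. Such genes passed the filter largely through CLEC4F- libraries, so their direction was largely set in advance. The B cell sum was 29.8 to 191.5 CPM in CLEC4F- macs and 9.85 to 28.5 CPM in ResKCs, and the dendritic cell sum 14.1 to 165.3 and 7.09 to 18.5 CPM. CLEC4F- replicate 1 was the highest in both sums, and without it 3 members were higher and 5 lower, against 14.5% and 13.9% of all genes. The part of these cells in the member differences was not tested.

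Cox5a, a nuclear subunit of complex IV on the matrix side, had the largest difference. WD ResKCs had 158.2 ± 16 CPM (n = 6), from 142.7 through 155.3 to 187.1 CPM, and CLEC4F- macs 94.0 ± 23 CPM (n = 6), from 71.9 through 88.5 to 128.9 CPM. The groups did not overlap, and Cox5a was 68.3% higher in ResKCs (log2 fold change 0.75 ± 0.10, edgeR adjusted p = 8.32e-07). moKCs were at 120.4, 121.3, 160.3, 128 and 139.2 CPM, overlapping both groups, and they were 42.4% higher than CLEC4F- macs (0.51 ± 0.11, adjusted p = 0.000973). The difference between ResKCs and moKCs, 0.24 ± 0.11, was not called (adjusted p = 0.26). CLEC4F- replicate 4, with the most Kupffer cell RNA by the summed markers, had the highest Cox5a of its group, and without it the ResKC difference was 0.86. Within the first and the second naming scheme the ResKC difference was 0.96 (adjusted p = 3.49e-07) and 0.57 (adjusted p = 0.0135). For moKCs it was 0.64 (adjusted p = 0.000336) and 0.36 (adjusted p = 0.207), so the call held in the first scheme alone.

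The other members higher in ResKCs than in CLEC4F- macs were Cox6a1 (0.22 ± 0.07, adjusted p = 0.00908), the supercomplex factor Cox7a2l (0.27 ± 0.08, adjusted p = 0.0141) and Sdhc (0.23 ± 0.08, adjusted p = 0.0206). Cox6a1 had 215.6 ± 17 CPM in ResKCs, compared with 185.1 ± 16 CPM in CLEC4F- macs, with overlapping libraries, and its call was lost without CLEC4F- replicate 2 (adjusted p = 0.0542). That of Sdhc was lost without ResKC replicate 5 or without CLEC4F- replicate 1, 2 or 3.

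Among those lower in ResKCs, Ndufc2, an accessory subunit of the complex I membrane arm, had the smallest p. It ran from 59.2 through 62.1 to 69.6 CPM in ResKCs and from 74.8 through 82.5 to 97.7 CPM in CLEC4F- macs, without overlap (-0.42 ± 0.09, adjusted p = 0.000539). moKCs, at 58.1, 64.6, 70.6, 71.5 and 69.2 CPM, were also all below CLEC4F- macs (-0.35 ± 0.10, adjusted p = 0.011). Cox7b, a small complex IV subunit, had 68.5 ± 6.8 CPM in ResKCs, compared with 92.4 ± 12 CPM in CLEC4F- macs (adjusted p = 0.00142). Atp5c1, the γ subunit that turns inside the ATP synthase head, had 186.0 ± 13 and 228.9 ± 20 CPM (adjusted p = 0.00171). Neither gene overlapped between these groups. The remaining called members were Atp5j2, Atp5e, Ndufb11 and the assembly factor Ndufaf6.

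moKCs against CLEC4F- macs gave 1 member higher, Cox5a, and 2 lower, Ndufc2 and Uqcrfs1, when edgeR called 9.34% of all genes higher and 7.09% lower. Uqcrfs1, the Rieske iron-sulfur protein of complex III, had 88.0 ± 6.6 CPM in moKCs, compared with 100.8 ± 8.9 CPM in CLEC4F- macs (-0.20 ± 0.07, adjusted p = 0.0481), with overlap, a call lost without any 1 of 8 of the 11 libraries. ResKCs against moKCs gave 0 members in either direction, by edgeR, DESeq2 and limma alike, when edgeR called 2.00% of all genes higher and 0.991% lower. At an unadjusted p under 0.05, 4 members were higher in ResKCs and 2 lower, when 8.47% of all tested genes were higher and 7.44% lower. The 3 comparisons share libraries. The median of the members was -0.04 for ResKCs against moKCs and -0.03 for moKCs against CLEC4F- macs, and the sign of both depended on the setting.

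**Figure D5:**
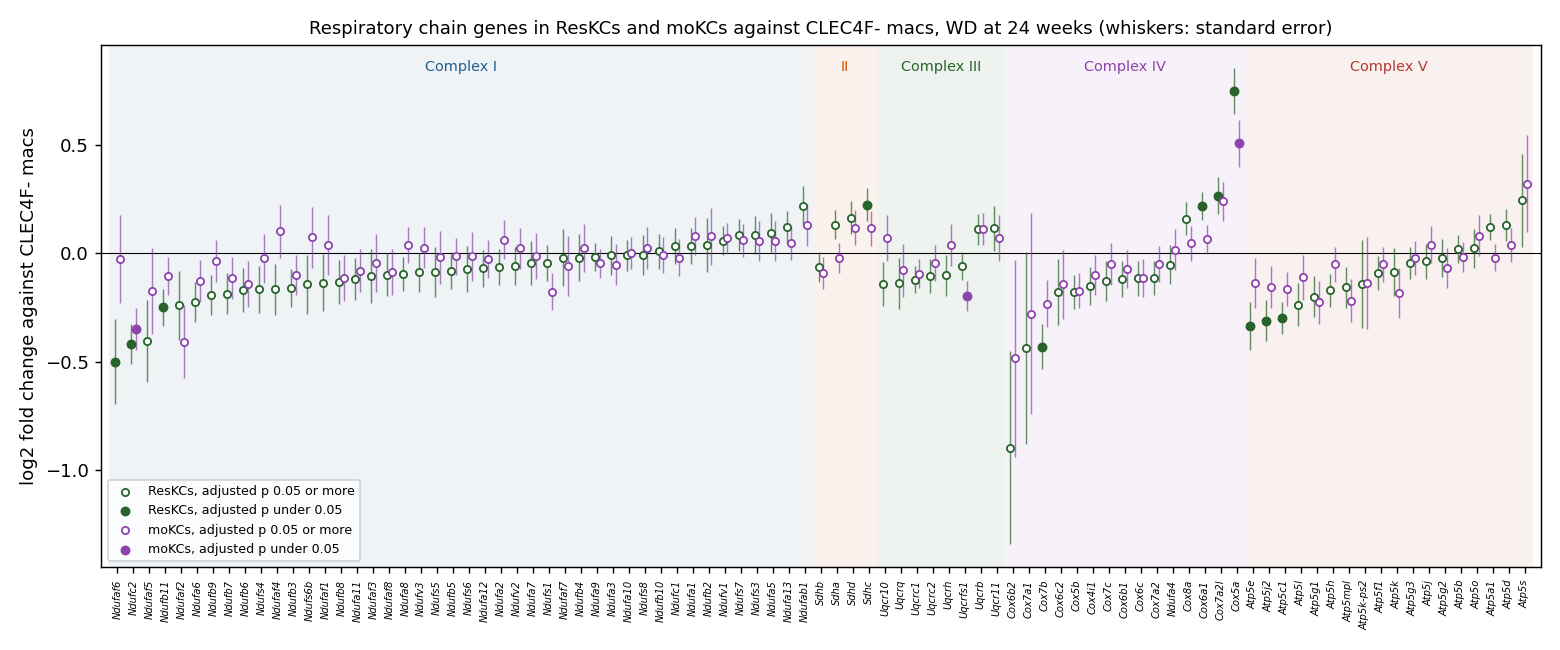
Log2 fold change against the CLEC4F- population after 24 weeks of WD (y axis) for 89 of the 90 members grouped by complex (x axis), with ResKCs in green and moKCs in purple; filled points have an adjusted p under 0.05 and whiskers are standard errors. Cox5a is the highest point for both populations, at 0.75 for ResKCs and 0.51 for moKCs.

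For the subunits encoded in mitochondrial DNA, the estimates for the WD at 24 weeks were larger and their standard errors wider. Of 13 genes, 9 passed the filter, and all 9 estimates were below 0 with a median log2 fold change of -0.54. Only mt-Nd2, a complex I core subunit, was called: it ran from 271.9 through 300.0 to 345.5 CPM on the SD and from 153.0 through 190.6 to 227.7 CPM on the WD, without overlap (-0.66 ± 0.21, edgeR adjusted p = 0.0434). Summed levels were 4027 ± 361 and 2860 ± 311 CPM, and 6 of the 9 genes were lower without overlap between the diets, as were 1.91% of all tested genes. One of the 6 was mt-Co2. mt-Co2 and mt-Atp6 were below 2.3 CPM in every library, and mt-Co3 reached 1.03 CPM at most, whereas mt-Co1 lay between 748 and 2680 CPM. The handling of reads that also match nuclear copies of mitochondrial DNA is not given in the sources used here, so these levels are uncertain.

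Other mitochondrial gene lists were counted for the diet at 24 weeks, when edgeR called 3.87% of all genes lower and 4.84% higher. At an unadjusted p under 0.05, these shares were 11.8% and 13.0%. Of 40 tested assembly factors outside the rule, 0 were called by edgeR and 5 were lower at an unadjusted p under 0.05. The 17 citric acid cycle genes had a median of 0.06, with 0 called and 1 higher at an unadjusted p under 0.05. The 11 tested biogenesis regulators had 0 called and 3 lower at an unadjusted p under 0.05, and of cytochrome c and c1 neither was called. Among 77 mitochondrial ribosomal proteins 2 were called lower, led by Mrpl3 (-0.62 ± 0.10, adjusted p = 8.00e-05), which went from 124 to 80.6 CPM. Among 81 cytosolic ribosomal proteins 1 was called lower, Rps13.

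Between ResKCs and CLEC4F- macs, where 17.0% of all genes were called higher and 16.1% lower, the same lists were counted. Of the cytosolic ribosomal proteins 74 were lower in ResKCs, with a median of -0.54. The citric acid cycle had 6 genes higher and 2 lower, led by Ogdh, a subunit of the 2-oxoglutarate dehydrogenase complex (0.52, adjusted p = 3.00e-06). Ppargc1b, a coactivator of mitochondrial biogenesis, was higher in ResKCs (0.82, adjusted p = 1.54e-05) and in moKCs (0.70) than in CLEC4F- macs. Another of the biogenesis regulators, Gabpb1, was lower in ResKCs (-0.34, edgeR adjusted p = 0.0073). Assembly factors outside the rule were called in both directions. Coa5 was higher in ResKCs (0.44, edgeR adjusted p = 0.000317), and Cox17, the copper chaperone of complex IV, was lower (-0.62, edgeR adjusted p = 0.00605). Mitochondrial ribosomal proteins gave 2 higher and 11 lower.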

How the data were processed

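RNA of sorted macrophages was sequenced as 75-base single reads (TruSeq, NextSeq 500). The authors deposited raw read counts per gene symbol for each library, made with HISAT2 2.2.0 on mm10 and featureCounts 2.0.0; the annotation, strand setting and treatment of multi-mapped reads are not given in the sources used here, so genes with near-identical copies or antisense partners are uncertain.

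Genes over 1 CPM in at least 5 libraries (13421 of 54735) were tested with edgeR 4.0.16 (R 4.3.3): TMM scaling, 1 quasi-likelihood fit of 6 group means over all 35 libraries, Benjamini-Hochberg adjustment over all genes, called at 0.05 without a fold limit. Displayed CPM are TMM-scaled, and log2 CPM used a prior count of 2. Lengths came from GENCODE M21, which held 13387 tested genes. Alternatives included DESeq2 1.42.0, limma 3.58.1, library size alone, no filter, covariates, length offsets, a replicate block and leaving out each library. In simulated 24-week diet data (13421 genes), 51% of genes changed 1.5-fold and 67% changed 2-fold were recovered. These genes were drawn at random and raised by more than any called member changed at 24 weeks. The rates therefore do not give the recovery of member changes.

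Genes named were, per complex, the 2 with the highest mean CPM; per comparison, the 3 called with the lowest p in each direction; isoform sets; the 2 on each side of the filter; and the Sdh genes. Other called members are named because they were called, and those given with values beyond this rule were singled out after their values were seen. Members and lists were chosen with earlier results of these data known. No sample was left out of the analysis. A complex I member that entered all fits and counts is not reported here.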

Additional observations from a re-analysis of the deposited data

Results flagged for a closer look

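In 198 groups of values screened, 8 libraries stood far from the rest of their group by Dixon's criterion, which chance passes in about 1 of 20 groups. In complex IV, Cox7a1 was low in SD ResKC replicate 7 at 12 weeks (0.142 CPM) and in moKC replicate 1 (0.258 CPM), both at the detection floor. Cox7b was low in moKC replicate 1 (65.8 CPM, others 80.0 to 84.5), and Cox8a was high in SD ResKC replicate 6 at 12 weeks (173 CPM, others 133 to 148). Ndufa1 was high in WD ResKC replicate 5 at 12 weeks (89.0 CPM, others 65.1 to 70.8). Sdhb was low in SD ResKC replicate 6 (170 CPM, others 197 to 210) and in WD ResKC replicate 3 at 24 weeks (150 CPM, others 174 to 189). The summed mitochondrially encoded subunits reached 9351 CPM in WD ResKC replicate 3 at 12 weeks, against 3143 to 4468 CPM in the other 4.

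The diet effect in ResKCs differed between 24 and 12 weeks for 8 members by the edgeR interaction test. The differences on the log2 scale were -0.70 for Ndufb4, -0.65 for Ndufa1, -0.60 for Cox7c, -0.59 for Ndufa3, -0.58 for Atp5j2, -0.56 for Atp5h, -0.55 for Cox6b1 and -0.52 for Cox6c. Each had an estimate above 0 at 12 weeks and below 0 at 24 weeks.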

How the results depend on the processing

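No called member under the naming rule changed direction in any alternative. The other called members were not checked for this. Among uncalled medians, that for ResKCs against CLEC4F- macs (-0.09) rose above 0 with principal length corrections, that for ResKCs against moKCs (-0.04) was 0.004 to 0.027 under the 4 length corrections and 0.004 in the first scheme, and that for moKCs against CLEC4F- macs (-0.03) was -0.11 with library size alone or in the first scheme, 0.001 in the second scheme and -0.066 to 0.008 without single libraries. The 17 members lower with the WD at 24 weeks became 24 with the scheme covariate, 23 by DESeq2, 19 with upper-quartile scaling, 18 with robust dispersion, 5 with library size alone (and 1 higher), 9 without a filter, 7 with the hepatocyte covariate, 8 without the 4 libraries richest in hepatocyte RNA, 5 in the first naming scheme, 5 with a replicate block, 10 with the exonic length trend removed (7 with the scheme as well), 6 with the principal transcript length trend removed (8 with the scheme; median without the scheme -0.068) and 0 with a log2 fold limit of 1. Of all genes, the share called lower at 24 weeks was 5.03% by DESeq2, 1.24% without a filter and 3.30% with the hepatocyte covariate. It was 2.53% with library size alone, 1.67% in the first scheme and 2.94% with the block. Against CLEC4F- macs, ResKCs had 4 higher and 7 lower. The higher count was 1 with library size alone, 2 with the immediate-early covariate, the compared groups alone, the replicate block or the first scheme, 1 in the second scheme, 10, 11, 13 and 15 under the 4 length corrections in the same order, and 0 with the fold limit. The lower count was 34 with library size alone (median -0.21), 4 with the block, 3 in the second scheme, 4 with either principal length correction (median 0.0219 without and 0.0221 with the scheme) and 0 with the fold limit. ResKCs against moKCs gained 1 or 2 higher members under the length corrections. For moKCs against CLEC4F- macs (1 higher, 2 lower), the higher count was 2 or 3 under length corrections and 0 in the second scheme or with the fold limit, and the lower count was 8 with library size alone, 4 with exonic length corrections, 1 without a filter, with compared groups alone or without the hepatocyte-rich libraries, and 0 with the block, the second scheme or the fold limit. The 8 members with a lower effect at 24 than at 12 weeks became 2 with library size alone, without a filter or with compared groups alone, 18 by DESeq2, 5 with the exonic and 1 with the principal length trend removed, 1 without the hepatocyte-rich libraries, and 0 with the block, the first scheme, the fold limit or scheme and length together; the median was -0.43 with the scheme covariate, -0.17 and -0.13 with length trends removed and -0.17 with scheme and principal length. For the difference between 24 and 12 weeks, 0% of all genes were called in the first scheme or with the block, where the members' medians were -0.40 and -0.30. Apart from what each alternative's own construction shows, such as fewer samples or genes, the cause was not tested.

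Leaving out single libraries gave 8 to 24 members lower at 24 weeks (median -0.21 to -0.15), 1 to 17 for the difference (median -0.35 to -0.27), 2 to 6 higher and 5 to 10 lower for ResKCs against CLEC4F- macs (median -0.12 to -0.05), and 1 to 2 higher and 1 to 3 lower for moKCs against CLEC4F- macs. The comparisons with 0 members called kept 0 in each of these. Of the alternatives for the named called members, 520 kept the call and direction and 132 lost the call. Replicate numbers shared between groups were not treated as pairs in the main test, and the labels do not say whether they mark a shared mouse. For ResKCs against CLEC4F- macs, same-numbered libraries correlated at 0.024 to 0.263. There 5 of 6 ResKC libraries correlated best with the CLEC4F- library of their own number, so a pairing remains possible. With the replicate block that comparison had 2 members higher and 4 lower. The lowest correlation, -0.36, was between the diets at 12 weeks, where no mouse can be shared. The exonic and principal length corrections combined with the scheme, principal length alone, and omission of hepatocyte-rich libraries were chosen after seeing the data. Members near 3 counts, such as Cox6b2 and Cox7a1, are limited by depth.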

Other observations

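Cox6a2, the heart and muscle isoform of complex IV subunit 6A, stayed below the filter but was not even across groups. It averaged 1.19 ± 0.34 CPM in CLEC4F- macs (n = 6), from 0.850 through a median of 1.13 to 1.73 CPM, and no WD ResKC or moKC library at 24 weeks exceeded 0.748 CPM. CLEC4F- macs therefore did not overlap the other WD groups of that time. These levels correspond to few reads per library, and no test was run. Cox6a1 in the same CLEC4F- libraries averaged 185.1 CPM.

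The retrotransposed copies and the pseudogene among the members had low levels that varied little. Ndufs6b had group means of 6.02 to 7.00 CPM, Cox6c2 of 4.92 to 5.57 CPM and Atp5k-ps2 of 2.62 to 3.11 CPM. How reads shared with their parent genes were counted is not given in the sources used here.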
